A study of Homo sapiens with 10 samples.

Results

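The integrated stress response and its amino acid programme were followed through 41 genes in RNA from MV4-11 cells with and without IRF8. The 41 genes were chosen by symbol, for their known place in this pathway, out of the 19590 genes of the table. Earlier results of these data were known when they were chosen. All 41 were measured, and all 41 averaged 10 or more normalized counts over the 8 libraries, as did 13110 genes, which were tested. MV4-11 is an established human acute myeloid leukemia line. The control cells (n = 4 libraries) were MV4-11 infected with the control vector, and the IRF8 KO cells (n = 4) were MV4-11 clones derived by limited dilution after infection with lentiCRISPRv2, a lentivirus that carries Cas9 and a guide RNA, here against IRF8. The paper's methods describe puromycin selection of the infected cells. Both groups were grown in RPMI medium with serum, and the labels give no further treatment. The control cells are not described as clones, so loss of IRF8 and derivation as clones cannot be told apart. Each group carries the replicate numbers 1 to 4, but the labels say neither which clone a KO library came from nor what a shared number marks, so p-values measure the spread between these libraries only.

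The integrated stress response starts with kinases that phosphorylate the translation factor eIF2, among them PERK (EIF2AK3), which senses unfolded protein in the endoplasmic reticulum, and GCN2 (EIF2AK4), which senses a lack of amino acids. Phosphorylated eIF2 slows protein synthesis overall while it favours translation of the transcription factor ATF4. ATF4 then raises genes for amino acid uptake and synthesis, tRNA charging and stress feedback, so the mRNA of its targets is often a better readout of the pathway than its own mRNA.

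Libraries held 39560072 to 65519047 reads on genes. In control the depths of replicates 1 and 3 overlapped those of 2 and 4. In IRF8 KO replicates 1 and 3, at 50354664 and 39560072 reads, were both below 2 and 4, at 54048461 and 52263132. IRF8 itself was at 36891, 15192, 43016 and 22535 normalized counts (read counts divided by one size factor per library) in control replicates 1 to 4 and at 6377, 2401, 12903 and 7819.7 in IRF8 KO replicates 1 to 4. Its mRNA fell to 25.1% of the control mean (log2 fold change -2.11, standard error 0.51, adjusted p = 0.022 by limma), and within the control it was higher in replicates 1 and 3. These values are of mRNA and do not measure the protein, which the paper reports as absent from its knockout clones by Western blot. All 10 myeloid markers examined reached a mean of 10, with summed levels of 96070 to 100832 in control and 115713 to 349592 in IRF8 KO, 2 of them called higher in IRF8 KO, and 2 lower and 4 higher in replicates 1 and 3 than in 2 and 4 of both groups. Of 6 T cell markers only CD4, which monocytes also express, reached 10, with sums of 3342 to 5363 in control and 18571 to 25860.3 in IRF8 KO, while TRAT1 was at 0 throughout. Of 6 erythroid markers only EPOR reached 10 (sums of 654 to 923 and 471 to 573), with HBB at 0. B cell markers summed to 479 to 972 and 436 to 1853 with 3 of 5 at 10 or more and MS4A1 at 0, and fibroblast and epithelial markers to 1494 to 3739 and 67.1 to 263 with 3 of 7 at 10 or more and COL3A1 at 0. The part of these markers in the results below was not tested. In bulk RNA, fewer cells of one kind and less RNA per cell cannot be told apart.

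Most of the variation in these genes lay between libraries of the same genotype. In 34 of the 41 genes, replicates 1 and 3 were both below replicates 2 and 4 in the control and again in IRF8 KO, against 18.9% of all tested genes. Only ALDH18A1 was above in both, a pattern found in 19.3% of tested genes. Of the other 6, EIF2AK3, EIF2AK4, SLC7A11, SLC3A2 and EPRS were below in control alone, and HSPA5 was above in IRF8 KO alone. A difference of at least 2-fold in both groups, with 1 and 3 below, was found in 24 of the 41 genes and in 3.63% of tested genes. The median difference of replicates 1 and 3 minus 2 and 4 was -1.36 (log2) over the 41 genes in control and -1.11 in IRF8 KO, where the medians over all tested genes were -0.02 and -0.01. The split was proposed with results of these data in view and the labels attach no meaning to it, so it is described and carries no test. The 41 genes were also chosen with earlier results known, so these counts are no independent evidence for the split. Replicates are named here as 1 and 3 or 2 and 4 for this reason alone.

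Expressed as a share of each gene's variance over the 8 libraries, the split took a median of 92.1% over the 41 genes and 25.8% over all tested genes, and genotype took 3.05% and 26.3%. The median deviation of the 41 genes from their own means was -0.77 and -0.73 (log2) in control replicates 1 and 3, and 0.55 and 0.71 in control replicates 2 and 4. In IRF8 KO it was -0.49 and -0.64 in replicates 1 and 3 and 0.47 and 0.70 in replicates 2 and 4. The same median over all tested genes lay between 0.00 and 0.01 in every library.

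**Figure D1:**
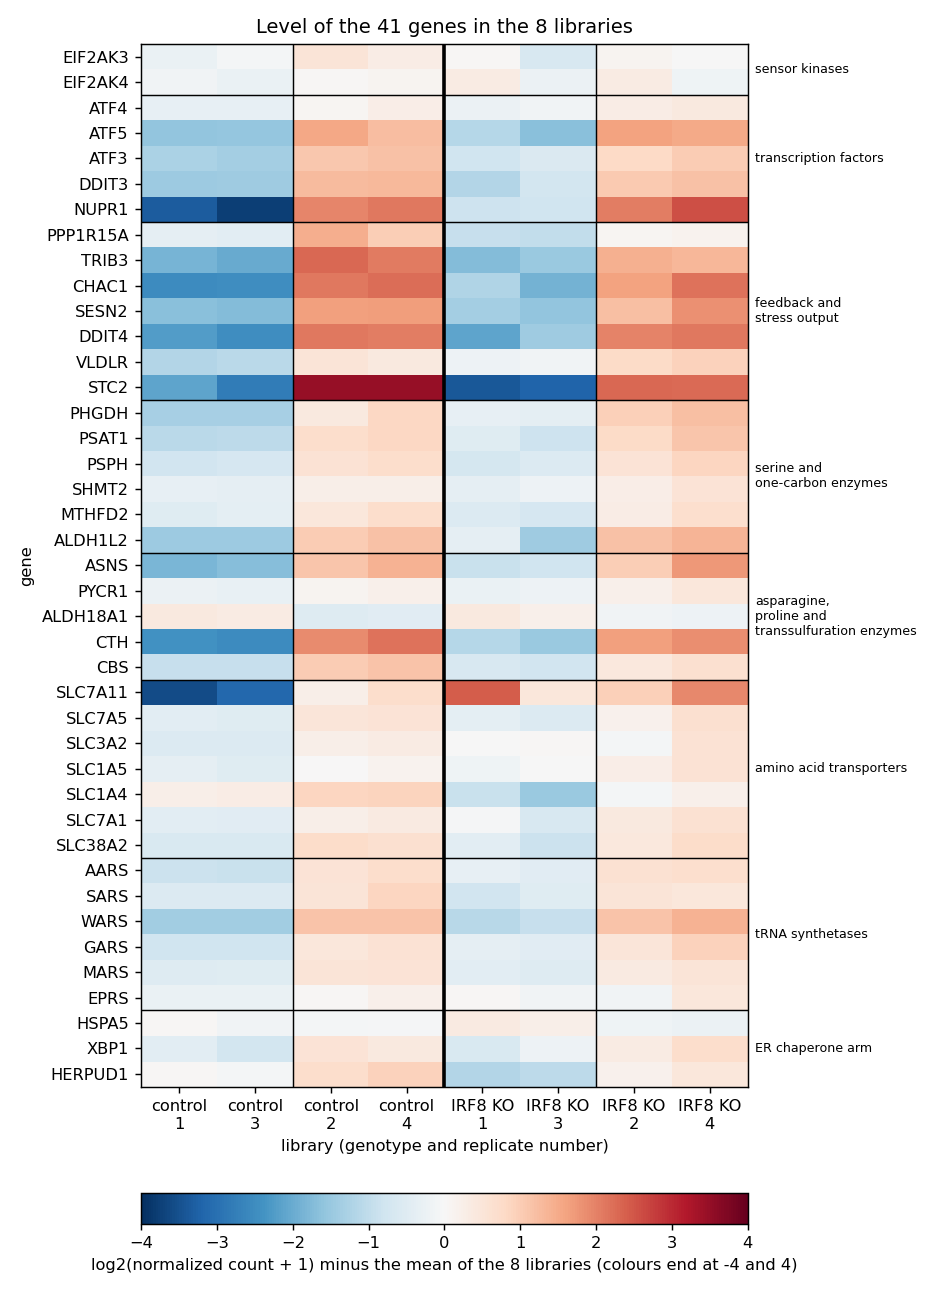
Each cell of the map is the log2(normalized count + 1) of a gene (vertical axis, grouped by role) in a library (horizontal axis) minus the mean of that gene over the 8 libraries, with blue for lower and red for higher and the colours ending at -4 and 4. The columns of replicates 1 and 3 are mostly blue and those of 2 and 4 mostly red in both genotypes, with SLC7A11, ALDH18A1 and HSPA5 as the visible exceptions.

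Promoter sequences of some of these genes are shown as background to the pathway. The amino acid response of ATF4 targets is known to run through a composite site for C/EBP and ATF factors, and the endoplasmic reticulum chaperone genes through an ER stress response element. In RefSeq promoters (GRCh38.p14, 250 bases before to 50 bases after the start site), 35 of the 41 genes were matched, and TTGCATCA on either strand was present in 6 of them (17.1%), CHAC1, SLC1A5, SLC1A4, AARS, MARS and HERPUD1, against 1.08% of all 27305 genes with a promoter (0.866% of the 35116 promoters). With 1 base free (TTNCATCA, which includes every TTGCATCA), 11 of the 35 (31.4%) had a match, adding ATF3, ASNS, SLC3A2, SLC7A1 and GARS, against 4.46% of all genes (3.62% of promoters). The ER stress response element, CCAAT and CCACG with 9 bases between them, was found on either strand in HSPA5 and XBP1 only, 2 of the 35 genes (5.71%), and in 0.0916% of all genes (0.0769% of promoters). Promoters of NUPR1, PSPH, SHMT2, ALDH1L2, PYCR1 and SLC7A11 were not matched by symbol. The 41 genes were chosen for their known place in this pathway, so their higher share of matches follows in part from that choice. It is no evidence on the pattern between libraries. A match is a match of letters and says nothing about binding in these cells.

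The 250 bases before the start site are printed 5′ to 3′ on the strand of the gene for 6 of these genes, with the C/EBP-ATF match in capitals for CHAC1, ASNS (on the opposite strand), AARS and HERPUD1, and both parts of the ER stress response element in capitals for HSPA5 and XBP1.
CHAC1 (chr15:40953221-40953470, plus strand): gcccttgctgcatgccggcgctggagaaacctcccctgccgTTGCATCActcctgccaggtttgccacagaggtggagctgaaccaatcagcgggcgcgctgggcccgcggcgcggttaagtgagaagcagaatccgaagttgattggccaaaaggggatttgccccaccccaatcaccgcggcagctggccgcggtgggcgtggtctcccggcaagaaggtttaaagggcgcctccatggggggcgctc
ASNS (chr7:97872409-97872658, minus strand): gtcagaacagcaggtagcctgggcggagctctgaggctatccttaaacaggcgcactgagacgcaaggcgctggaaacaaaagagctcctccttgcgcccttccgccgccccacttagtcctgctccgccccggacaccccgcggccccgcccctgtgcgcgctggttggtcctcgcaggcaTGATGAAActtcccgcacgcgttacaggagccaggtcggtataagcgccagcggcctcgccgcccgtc
AARS (chr16:70289507-70289756, minus strand): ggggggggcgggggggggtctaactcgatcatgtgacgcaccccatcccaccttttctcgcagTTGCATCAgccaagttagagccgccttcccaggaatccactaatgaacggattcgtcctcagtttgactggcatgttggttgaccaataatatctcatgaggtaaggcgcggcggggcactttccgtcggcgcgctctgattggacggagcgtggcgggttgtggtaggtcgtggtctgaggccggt
HERPUD1 (chr16:56931892-56932141, plus strand): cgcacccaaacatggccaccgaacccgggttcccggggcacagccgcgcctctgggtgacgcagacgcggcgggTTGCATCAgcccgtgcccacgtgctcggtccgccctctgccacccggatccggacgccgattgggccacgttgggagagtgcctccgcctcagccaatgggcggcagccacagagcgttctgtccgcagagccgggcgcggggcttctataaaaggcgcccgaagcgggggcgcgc
HSPA5 (chr9:125241344-125241593, minus strand): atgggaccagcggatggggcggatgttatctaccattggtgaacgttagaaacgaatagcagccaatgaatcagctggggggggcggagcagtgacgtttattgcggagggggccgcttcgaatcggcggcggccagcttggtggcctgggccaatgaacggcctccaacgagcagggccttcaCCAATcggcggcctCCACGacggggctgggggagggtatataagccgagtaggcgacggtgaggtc
XBP1 (chr22:28800570-28800819, minus strand): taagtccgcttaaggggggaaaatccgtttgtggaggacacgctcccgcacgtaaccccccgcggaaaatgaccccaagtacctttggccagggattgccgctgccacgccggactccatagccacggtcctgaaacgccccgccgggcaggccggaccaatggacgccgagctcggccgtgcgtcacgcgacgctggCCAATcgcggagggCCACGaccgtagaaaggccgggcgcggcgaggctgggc
The matches begin 209 bases before the start site in CHAC1, 68 in ASNS, 187 in AARS, 176 in HERPUD1, 66 in HSPA5 and 52 in XBP1. Among the genes with the strict TTGCATCA, the level in replicates 2 and 4 relative to 1 and 3 ranged widely, from 1.42-fold (SLC1A5) to 25.9-fold (CHAC1) in control.

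The sensor kinases showed little of this pattern. EIF2AK3 stood at 1214 and 1377 normalized counts in control replicates 1 and 3 and at 2094 and 1784 in 2 and 4, and in IRF8 KO at 1508 and 921 against 1574 and 1438. EIF2AK4 was at 3779 and 3429 against 4231 and 4429.9 in control and at 5206 and 3541 against 5181 and 3670.3 in IRF8 KO. For both kinases, the pairs of replicates were apart in control and overlapped in IRF8 KO. In IRF8 KO, EIF2AK4 was instead higher in replicates 1 and 2 than in 3 and 4.

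Among the transcription factors, all 5 were lower in replicates 1 and 3 of both genotypes, but by very different amounts. ATF4 mRNA was at 19599 and 19487 normalized counts in control replicates 1 and 3 and at 26327 and 29913 in 2 and 4, and in IRF8 KO at 20911 and 22199 against 30513 and 32739.6. ATF5, a relative of ATF4 that is likewise under translational control, was at 3343 and 3398 against 29198 and 23482 in control and 4488 and 3129.5 against 30056 and 28128 in IRF8 KO. The ratio of replicates 2 and 4 to 1 and 3 was thus 1.44 in control and 1.47 in IRF8 KO for ATF4, and 7.82 and 7.64 for ATF5, nearly equal in the genotypes for each gene. DDIT3, which encodes CHOP, was at 489 and 495 against 3188 and 3263 in control and at 587 and 792 against 2761 and 3028 in IRF8 KO. ATF3, a stress-induced repressor, was at 341 and 324 against 1736 and 1866 and at 472 and 555 against 1428 and 1668. In ATF3 and DDIT3 the replicates 1 and 3 of IRF8 KO were above those of the control, and the replicates 2 and 4 were below. NUPR1, a small chromatin-associated stress protein, had the widest gap of the 5, from 29.8 and 21.5 to 1182 and 1342 in control and from 174 and 177 to 1278 and 1844 in IRF8 KO.

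All 7 stress feedback and output genes were lower in replicates 1 and 3 of both genotypes. TRIB3, a pseudokinase that binds ATF4 and limits its activity, was at 1128 and 1006 normalized counts in control replicates 1 and 3 and at 20079 and 17545 in 2 and 4, and at 1233 and 1463 against 10995 and 10309.5 in IRF8 KO. CHAC1, which degrades glutathione, was at 119.9 and 123 against 3010.3 and 3302 in control and at 302 and 187 against 2113 and 3137 in IRF8 KO. Each of these genes had no overlap between the pairs of replicates in either genotype, and the gap was 17.6-fold and 7.90-fold for TRIB3 and 25.9-fold and 10.7-fold for CHAC1, in control and IRF8 KO. DDIT4 (REDD1) and SESN2 both restrain mTORC1 signaling. DDIT4 was at 988 and 839 against 20162 and 19107 in control and at 1069.9 and 1751 against 18367 and 20334 in IRF8 KO, and SESN2 was 10.3-fold and 8.02-fold higher in replicates 2 and 4. STC2, a secreted glycoprotein induced by ER stress, was at 4.02 and 2.15 against 241 and 245 in control and at 1.07 and 1.35 against 106 and 104 in IRF8 KO. Since its lowest library held 1 read, no fold is given for STC2. PPP1R15A (GADD34), the phosphatase subunit that reverses eIF2 phosphorylation, was at 2012 and 1929.8 against 7069.5 and 5067 in control and at 1366 and 1308 against 2725 and 2823 in IRF8 KO. VLDLR, a lipoprotein receptor and known ATF4 target, was at 3340.1 and 3566 against 10888 and 9954 in control and at 6552 and 6879 against 13002 and 14219.8 in IRF8 KO. None of these genes had overlapping pairs in either genotype. Ranked from the lowest difference of 1 and 3 minus 2 and 4 on log2(normalized count + 1) over all 13110 tested genes, STC2 was at rank 7, NUPR1 at 25, DDIT4 at 31, CHAC1 at 35, CTH at 44, TRIB3 at 52, SESN2 at 71 and ATF5 at 87.

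**Figure D2:**
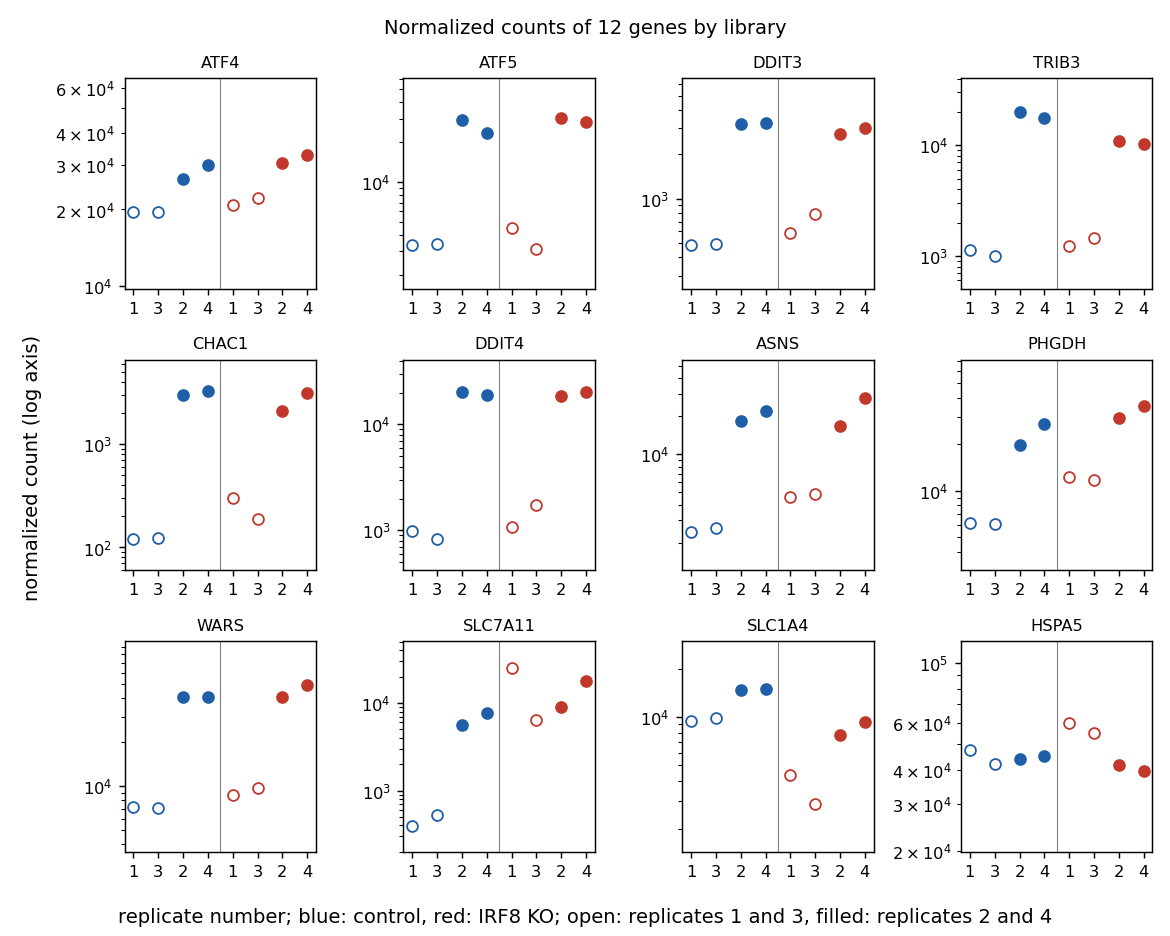
Normalized counts (log axis) of 12 of the 41 genes are plotted for each library (horizontal axis, replicate number), with control in blue, IRF8 KO in red, replicates 1 and 3 open and replicates 2 and 4 filled. ATF5, DDIT3, TRIB3, CHAC1 and DDIT4 separate open from filled points in both genotypes, SLC7A11 does so only in control, SLC1A4 is lower in every IRF8 KO library, and the open points of HSPA5 lie above the filled ones in IRF8 KO.

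All 6 serine and one-carbon enzymes were lower in replicates 1 and 3 of both genotypes. PHGDH, the entry enzyme of serine synthesis from glucose, was at 6109.9 and 6039.5 normalized counts in control replicates 1 and 3 and at 19899 and 27015 in 2 and 4, and at 12282 and 11665 against 29686 and 35582 in IRF8 KO. The next enzymes of the pathway followed, with PSAT1 3.57-fold and PSPH 2.57-fold higher in replicates 2 and 4 of the control, and 3.03-fold and 2.52-fold higher in those of IRF8 KO. The mitochondrial one-carbon enzymes spanned a wider range, from 1.49-fold (SHMT2) through 2.03-fold (MTHFD2) to 5.87-fold (ALDH1L2) in control, and 1.62-fold, 2.14-fold and 4.20-fold in IRF8 KO. SHMT2 passes the carbon of serine to folate, and MTHFD2 and ALDH1L2 oxidize the folate intermediates that follow.

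Among the other enzymes, ASNS and the transsulfuration genes followed the split while proline synthesis did so little or not at all. ASNS, which makes asparagine, was at 2405 and 2619 against 18524 and 22151 in control and at 4592 and 4882 against 16756 and 28088 in IRF8 KO. CTH, which releases cysteine from cystathionine, was at 125 and 116 against 2499 and 3048 in control and at 302 and 239.7 against 2075 and 2437 in IRF8 KO. For CTH the gap was 23.0-fold in control and 8.34-fold in IRF8 KO, with replicates 1 and 3 higher and 2 and 4 lower in IRF8 KO than in control. CBS, the enzyme before it, was 3.99-fold and 2.38-fold higher in replicates 2 and 4, but its near-identical copy CBSL held 97.1% to 98.0% as many counts in each library, so that the assignment of these reads is uncertain. PYCR1, the last enzyme of proline synthesis, was 1.34-fold and 1.49-fold higher in replicates 2 and 4. ALDH18A1, the first committed enzyme of that pathway, went the other way, at 8775 and 8355 in control replicates 1 and 3 against 4611 and 4852 in 2 and 4, and at 8743 and 7574 against 6069 and 5799 in IRF8 KO.

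The tRNA synthetases were lower in replicates 1 and 3 in 5 of 6 genes in both genotypes. WARS, the tryptophan enzyme, which interferon also induces, led with 7169 and 7111 against 40634 and 40713 normalized counts in control and 8685 and 9747 against 40766 and 49204 in IRF8 KO. In control, AARS (alanine) was 2.86-fold, GARS (glycine) 2.50-fold, SARS (serine) 2.39-fold and MARS (methionine) 2.06-fold higher in replicates 2 and 4. In IRF8 KO these ratios were 2.04, 2.16, 2.16 and 1.88. EPRS, the fused glutamate and proline enzyme, was at 24376 and 24282 against 30013 and 33579 in control, but at 30100.1 and 26409 against 26416 and 40087 in IRF8 KO, where the pairs overlapped.

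Of the amino acid transporters, 5 of 7 were lower in replicates 1 and 3 of both genotypes. SLC7A5 and SLC3A2 form the LAT1 exchanger for large neutral amino acids. SLC7A5 was 1.94-fold and 1.86-fold higher in replicates 2 and 4. SLC3A2, which also pairs with SLC7A11, was at 10949.5 and 10925 against 18557 and 19749 in control and at 15732 and 16262 against 14960.5 and 23721 in IRF8 KO, where replicate 4 alone was high. The glutamine transporter SLC1A5 (1.42-fold and 1.42-fold), the cationic amino acid transporter SLC7A1 (1.66-fold and 1.76-fold) and the neutral amino acid transporter SLC38A2 (2.46-fold and 2.28-fold) were separated in both genotypes.

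The endoplasmic reticulum genes divided. HSPA5, the chaperone BiP whose promoter is shown above, was at 47516 and 42235 normalized counts in control replicates 1 and 3 and at 44124 and 45049.9 in 2 and 4, with overlap, and at 59958 and 54840.4 against 41686 and 39845 in IRF8 KO, where replicates 1 and 3 were the higher ones. XBP1, a transcription factor of the unfolded protein response with the same promoter element, was lower in replicates 1 and 3, at 13821 and 11217 against 27274 and 24342 and at 12198 and 16153 against 23417 and 30264. HERPUD1, a component of ER-associated degradation, was lower there too, at 5736 and 5278 against 8947 and 10513 and at 2436 and 2650.1 against 6183 and 7590.5.

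The difference between the pairs of replicates had the same sign in both genotypes and was smaller in IRF8 KO in 32 of the 41 genes, against 50.0% of all tested genes. Genes whose difference changed sign could not be counted. Many tested genes had little split and so changed sign more easily, so the 50.0% is not a like base. NUPR1 was 49.2-fold higher in replicates 2 and 4 of the control and 8.89-fold in those of IRF8 KO, and TRIB3, CHAC1 and CTH above showed the same order. IRF8 KO minus control was positive in 31 of 41 genes within replicates 1 and 3, with a median of 0.25 (log2), and in 21 of 41 within replicates 2 and 4, with a median of 0.01. Over all tested genes these medians were -0.02 and 0.02. In 8 of the 41 genes, and in 11.2% of tested genes, both same-numbered differences had one sign in replicates 1 and 3 and both had the opposite sign in 2 and 4. In the 7 stress feedback genes, 5 were positive within replicates 1 and 3 and 1, VLDLR, within replicates 2 and 4.

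**Figure D3:**
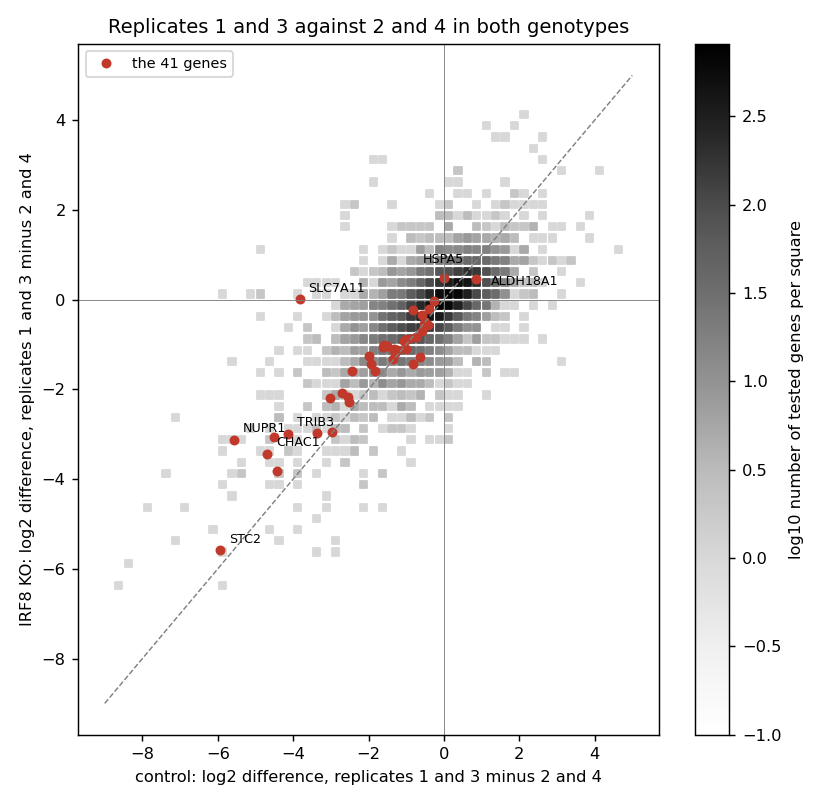
The log2 difference of replicates 1 and 3 minus 2 and 4 is plotted for control (horizontal axis) and IRF8 KO (vertical axis), with the 41 genes as red points over all 13110 tested genes, whose number per square is shaded on a log10 scale, and the dashed line marks equal differences. Most red points lie in the lower left, with NUPR1 at -5.58 and -3.12, SLC7A11 at -3.83 and 0.01, and ALDH18A1 above 0 on both axes.

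The question of the study was how loss of IRF8 alters transcription in these leukemia cells. Between genotypes no gene of the 41 passed the test without the block, and the 2 lowest p-values were those of the transporters SLC7A11 and SLC1A4. By limma on log2(normalized count + 1), 0 of the 41 genes passed an adjusted p of 0.05, against 18.2% of all tested genes, and 2, SLC7A11 and SLC1A4, had an unadjusted p below 0.05, against 31.6%. On the recovered reads, edgeR's quasi-likelihood test also called 0 of 41 (17.8% of tested genes), and DESeq2 called 1, SLC1A4 (25.9% of tested genes). With the cut-offs stated in the methods (p below 0.01 before adjustment, 2-fold or more), 0 of 41 genes and 10.9% of tested genes were counted by the limma fit. SLC1A4 was the 1 gene whose 4 IRF8 KO libraries did not overlap the 4 control libraries, which was the case for 25.3% of tested genes. The median log2 fold change of the 41 genes was 0.13, with 29 positive and 12 negative, and that of all tested genes was -0.00.

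Most of the spread within a genotype lay between replicates 1 and 3 and replicates 2 and 4, and standard errors ran from 0.15 (HSPA5) to 1.96 (STC2) on the log2 scale. That of ATF5 was 1.01 on a log2 fold change of 0.15, and with the replicate number as a block it was 0.12. Same-numbered control and IRF8 KO libraries deviated together across genes, but so did libraries on the same side of the split with different numbers. With the block, limma called 7 of the 41 genes at an adjusted p below 0.05. Of these, 4 were higher in IRF8 KO (14.2% of tested genes were) and 3 lower (14.6% of tested genes were). With the split of replicates as a covariate in place of the block, limma called 9 of 41, against 33.1% of tested genes. The 4 that rose with the block were PHGDH, VLDLR, SLC7A11 and SLC1A5, and the 3 that fell were PPP1R15A, SLC1A4 and HERPUD1.

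SLC7A11, the cystine transporter of system xc- that supplies glutathione synthesis, had the largest difference of the 41 genes between genotypes. It was at 397 and 530.5 normalized counts in control replicates 1 and 3 and at 5565 and 7703 in 2 and 4, and at 25434 and 6491 in IRF8 KO replicates 1 and 3 and 9093 and 17909.8 in 2 and 4. The control libraries were ordered by the split, the IRF8 KO libraries were not, and 3 of the 4 IRF8 KO libraries were above every control library. The means were 3549 ± 3668 in control and 14732 ± 8648 in IRF8 KO (SD, n = 4 each), and the log2 fold change was 2.88 with a standard error of 1.00 and an adjusted p of 0.080 by limma. With the block the standard error was 0.80 and limma's adjusted p 0.035, and an exact two-sided permutation test gave p = 0.057. Within replicates 1 and 3 the log2 difference was 4.80 and within 2 and 4 it was 0.96, and the difference between these values was not tested. The count models gave smaller values, 2.03 by edgeR (adjusted p = 0.18) and 2.05 by DESeq2 (adjusted p = 0.12). Leaving out 1 library gave log2 fold changes from 2.18 without control replicate 1 (adjusted p = 0.16 by limma) to 3.60 without control replicate 4 (adjusted p = 0.038 by limma), and of these 8 fits the last was the only one that called the gene.

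SLC1A4, which exchanges alanine, serine and cysteine and whose promoter window holds TTGCATCA, was lower in IRF8 KO. It was at 9404 and 9849 normalized counts in control replicates 1 and 3 and at 14719 and 14888 in 2 and 4, and at 4322 and 2867 against 7706 and 9339.5 in IRF8 KO. Every IRF8 KO library was below every control library, although IRF8 KO replicate 4 and control replicate 1 were close. The means were 12215 ± 2995 and 6059 ± 2982 (SD, n = 4 each), with a log2 fold change of -1.13, a standard error of 0.37 and an adjusted p of 0.065 by limma. The exact two-sided permutation test gave p = 0.029, the smallest that 4 against 4 libraries allow. With the block limma's adjusted p was 0.0039. On the recovered reads edgeR gave a log2 fold change of -1.02 (adjusted p = 0.092) and DESeq2 -1.01 (adjusted p = 0.027). Within replicates 1 and 3 the log2 difference was -1.45 and within 2 and 4 it was -0.80. Leaving out 1 library gave log2 fold changes from -1.38 without IRF8 KO replicate 4, the only one of these fits to pass (adjusted p = 0.037 by limma), to -0.82 without IRF8 KO replicate 3 (adjusted p = 0.12 by limma).

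The other 5 genes that passed with the block did not pass without it. PHGDH had a log2 fold change of 0.73 (standard error 0.59 without and 0.13 with the block, adjusted p = 0.45 and 0.0061 by limma), and was higher in IRF8 KO within replicates 1 and 3 (0.98) and within 2 and 4 (0.49). VLDLR had 0.67 (adjusted p = 0.37 without and 0.013 with the block by limma), and the values within the pairs were 0.96 and 0.39. SLC1A5 had 0.33 (adjusted p = 0.31 and 0.045 by limma), with 0.33 and 0.32 within the pairs. These 3 genes, of serine synthesis, lipoprotein uptake and glutamine uptake, were thus higher in IRF8 KO on both sides of the split. PPP1R15A had a log2 fold change of -0.83 (adjusted p = 0.27 and 0.0075 by limma), with -0.56 and -1.11 within the pairs, and its highest IRF8 KO library, at 2823 normalized counts, was below both control replicates 2 and 4. HERPUD1 had -0.81 (adjusted p = 0.22 and 0.0073 by limma), with -1.11 and -0.50 within the pairs.

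The remaining 34 genes passed neither with nor without the block. NUPR1 had the largest value among them on the log2(normalized count + 1) scale, 1.52 (standard error 1.54), made up of 2.75 within replicates 1 and 3 and 0.29 within 2 and 4, and limma's adjusted p with the block was 0.058. This value depended on the fit, at 0.41 by edgeR and 0.43 by DESeq2, and at 0.51 without control replicate 3 to 2.48 without control replicate 4. By both count models the value furthest from 0 among these genes was that of STC2, -1.21. The log2 fold change of ATF4 itself was 0.16 with a standard error of 0.20 (0.09 with the block), at means of 23831 ± 5164 and 26591 ± 5909 normalized counts (SD, n = 4 each). The tRNA synthetases lay between -0.15 (SARS) and 0.29 (GARS). Among the serine and one-carbon enzymes other than PHGDH, log2 fold changes ran from -0.14 (MTHFD2) to 0.36 (ALDH1L2), and among the enzymes of asparagine, proline and transsulfuration from -0.16 (CBS) to 0.51 (ASNS). The kinases EIF2AK3 and EIF2AK4 had -0.25 and 0.13, with standard errors of 0.23 and 0.17. A p that misses the threshold does not show equal levels in these genes.

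**Figure D4:**
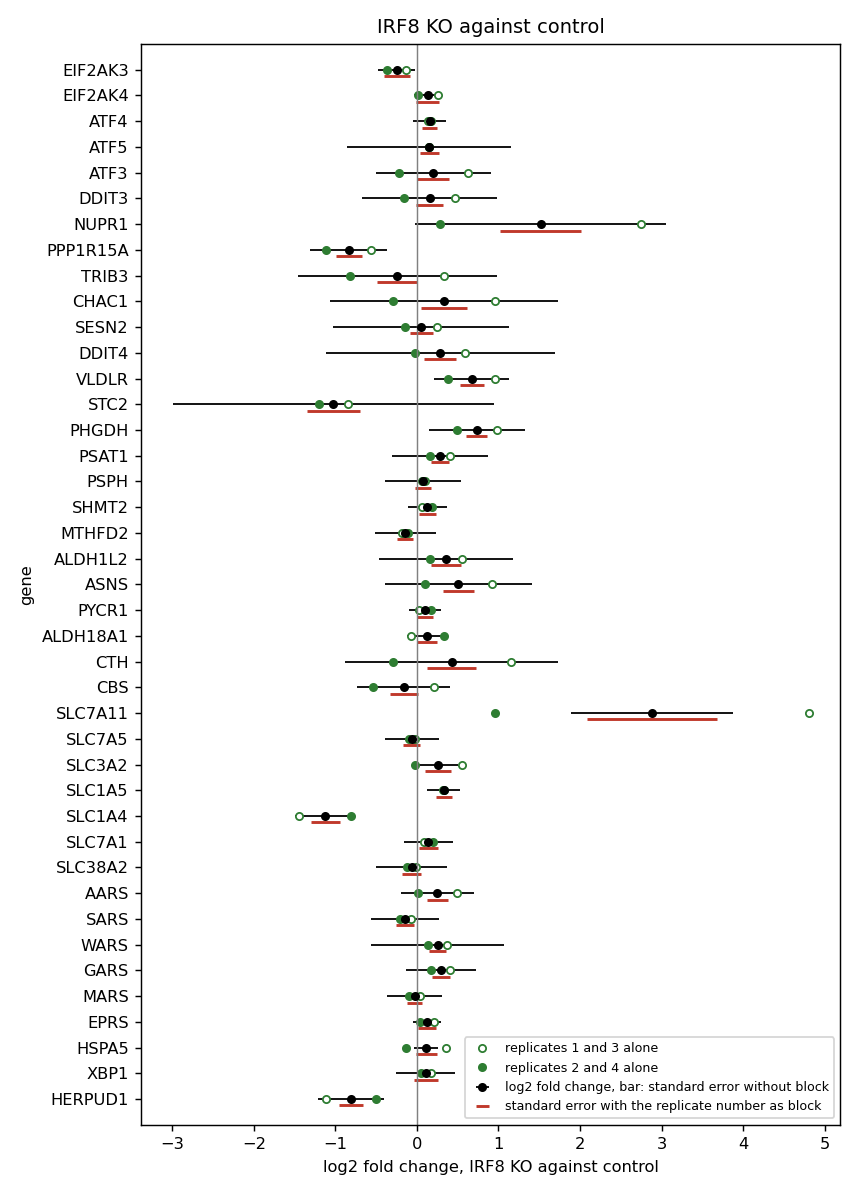
The log2 fold change of IRF8 KO against control (horizontal axis) is shown for each of the 41 genes (vertical axis) as a black point with its standard error without the block as a black bar and with the replicate number as a block as a red bar, and green points give the difference within replicates 1 and 3 (open) and within 2 and 4 (filled). The red bars are mostly much shorter than the black ones. SLC7A11, SLC1A4, PHGDH, VLDLR, PPP1R15A, HERPUD1, NUPR1 and STC2 are among the genes away from 0 with both green points on the same side. Of these, NUPR1 and STC2 did not pass with the block.

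Of the 41 genes, 2 lie on chromosomes 20 and 21, which earlier results had shown to be lower in IRF8 KO as a whole. The other chromosomes were not examined in this way. The 351 tested genes of chromosome 20, where TRIB3 lies, had a median log2 fold change of -0.92, and the 125 of chromosome 21, where CBS lies, one of -0.33. Relative to the chromosome median in each library, TRIB3 had a log2 fold change of 0.69 (exact two-sided permutation p = 0.54), with 1.29 within replicates 1 and 3 and 0.08 within 2 and 4, where the value before this step was -0.24. CBS had 0.15 relative to its chromosome (exact two-sided permutation p = 0.69). The split over all genes of these chromosomes was small, with medians of 0.03 and 0.07 (log2, 1 and 3 minus 2 and 4).

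The wider pathway was examined through 7 lists with 104 other genes, of which 101 were tested. Between genotypes 8 of them were called higher and 2 lower in IRF8 KO at an adjusted p below 0.05 by limma, and with the block 22 and 7, where the shares of all tested genes were as given above. OMA1, the mitochondrial protease that relays mitochondrial stress to eIF2 kinases, rose by 1.08 on the log2 scale (standard error 0.19, adjusted p = 0.0059 by limma), from 733 ± 65.9 to 1588 ± 444 normalized counts (SD, n = 4 each). GLUL, which makes glutamine, rose by 1.17 (standard error 0.28, adjusted p = 0.021), from 19450.3 ± 7345 to 42038 ± 9114. Every IRF8 KO library was above every control library in both genes. The ER protein folding genes PDIA3 and DNAJB11 rose by 0.71 and 0.59, the mitochondrial folate enzyme MTHFD2L by 0.57, the transporter SLC7A6 by 0.52 and the mitochondrial arginine synthetase RARS2 by 0.61. VARS2, the mitochondrial valine synthetase, fell by 0.53, and EIF2S2, the beta subunit of eIF2, fell by 0.86 but lies on chromosome 20, whose median is given above. By list, with some genes in more than 1 list, the block called 9 higher and 1 lower of the 19 other ER unfolded protein response genes (median log2 fold change 0.36) and 5 higher and 3 lower of the 13 tested other amino acid transporters (median 0.23). It called 3 higher and 0 lower of 15 other amino acid and one-carbon enzymes, 2 higher and 1 lower of 17 mitochondrial synthetases and 2 higher and 0 lower of 14 other cytosolic synthetases. Of the 14 tested other ATF4 targets 1 was called higher and 2 lower, and of the 15 eIF2 control genes 1 and 1.

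Along the split of replicates these lists differed in direction. Of the 14 tested other ATF4 targets, 13 were lower in replicates 1 and 3 of both genotypes and 0 higher, with a median of -1.19 (log2). GDF15, a secreted stress cytokine named here after its values were seen, had the widest gap of this list, -7.76 in control and -4.71 in IRF8 KO. These gaps rest on few reads. In replicates 1 and 3 GDF15 was at 4.02 and 3.22 normalized counts in control and at 2.13 and 23.0 in IRF8 KO. Of the 14 other cytosolic tRNA synthetases 6 were lower and 3 higher, and of the 17 mitochondrial synthetases 0 were lower and 9 higher, with medians of -0.07 and 0.39. The other ER unfolded protein response genes held 6 lower and 7 higher of 19 (median -0.01), and the eIF2 control genes 1 and 5 of 15 (median 0.20). Other amino acid and one-carbon enzymes had 5 lower and 5 higher of 15 (median 0.18), and other amino acid transporters 3 lower and 7 higher of 13 (median 0.37). The counts for all tested genes are given above, at 18.9% lower and 19.3% higher.

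**Figure D5:**
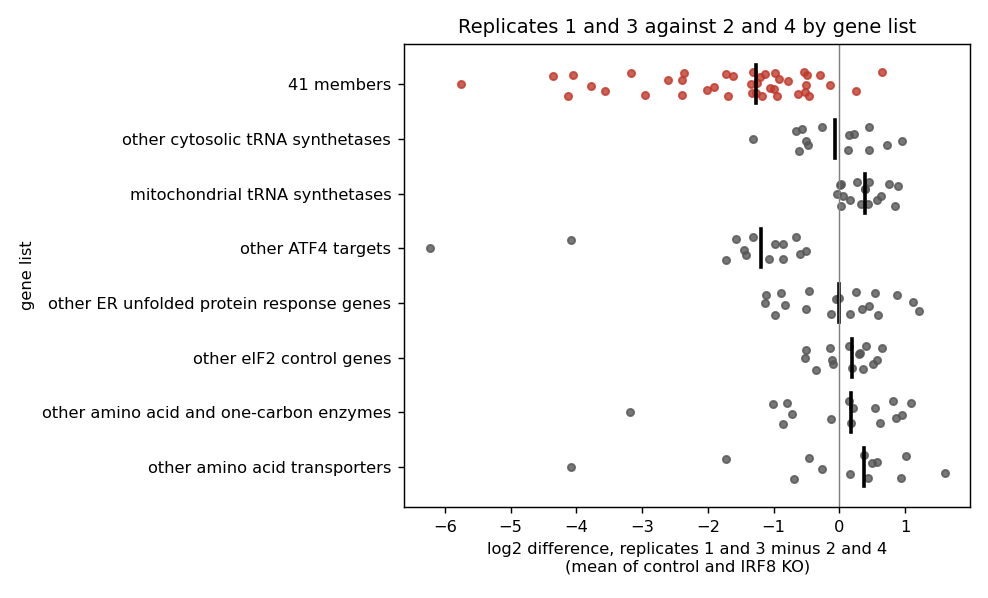
Each point is a gene, placed by the log2 difference of replicates 1 and 3 minus 2 and 4, averaged over control and IRF8 KO (horizontal axis), with the 41 genes in red, the 7 related lists in grey (vertical axis) and the median of each as a black bar. The 41 genes (median -1.27) and the other ATF4 targets (median -1.19) lie mostly below 0, and the mitochondrial tRNA synthetases (median 0.39) lie at or above it.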

How the data were processed

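The authors prepared TruSeq Stranded mRNA libraries, mapped the reads with RNA-Star 2.7.2b (annotation GENCODE v32) and obtained gene counts with featureCounts 2.0.1. What they deposited is a signal for every gene in each library, the count after division by a DESeq2 size factor. The processing notes of the submitters name hg19 and hg38 without a role. The deposited table of the authors' own comparison (means, log2 fold changes, standard errors, statistics and p-values) was not used. The IRF8 ChIP-Seq samples were not analysed here. Each column named as wild type was read as the control library with that number, and 0 columns were left out.

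The value of 1 read was recovered from the lowest values of each library, and 100% of values were whole within 0.01 reads. A gene at 10 normalized counts therefore rests on about 10 reads, so counting error is a large part of values near that level. The closest libraries of a group, control replicates 1 and 3, had a chi-square of 7.02 per gene and the other pairs within a group 41.1 to 443. This is above counting noise, so all 8 libraries were counted, but it does not show separate cultures. The main comparison was fitted to log2(normalized count + 1) by limma 3.58.1 (R 4.3.3), using a robust prior variance with a trend. It covered the 13110 genes that averaged 10 or more, and Benjamini-Hochberg adjustment ran over all of them. It was tested on simulated data, but no outcome of that test is given here. That test is therefore not used as evidence on how the fit behaves under the split of replicates. Fold changes on this scale understate those of low genes. Exact two-sided permutation tests compared single genes. Alternatives were pseudocounts of 0.5 and 5, no filter and a mean of at least 100, upper quartile and quantile scaling, no trend, count models of the recovered reads (edgeR 4.0.16, DESeq2 1.42.0), a block for the replicate number, the split of replicates as a covariate, and leaving out each library.

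Deviations from the group means of same-numbered control and IRF8 KO libraries correlated across the 13110 genes at 0.37, 0.48, 0.45 and 0.50 for numbers 1 to 4. The replicate number was used as a block in an alternative fit, although no label states a pairing. The correlations of control 1 with IRF8 KO 3 (0.47) and control 3 with IRF8 KO 1 (0.41) were of the same size. These values therefore do not tell a pairing by number from the split. Within control the deviations of replicates 1 and 3 correlated at 0.83 and those of 2 and 4 at 0.71. Within IRF8 KO these values were -0.13 and 0.05. Over all tested genes, the median absolute log2 difference of IRF8 KO replicate 1 was 0.32 from replicate 3, 0.30 from 2 and 0.28 from 4. That between IRF8 KO replicates 2 and 4 was 0.21. Over the 41 genes, IRF8 KO replicate 1 was at 0.19 from 3, 1.00 from 2 and 1.21 from 4. The split thus did not order the IRF8 KO libraries over all genes as it did over the 41. The members, the related and marker lists and the split were chosen with earlier results of these data known. Genes named are the 41 members, IRF8 and, of each related list, the 2 called genes with the largest change. GDF15, CBSL (the copy of CBS) and single markers (CD4, TRAT1, EPOR, HBB, MS4A1, COL3A1) are named outside this rule, a choice made with their values in view. Chromosomes and promoters came from RefSeq (GRCh38.p14), with 12997 of 13110 tested genes matched and 6 members (AARS, SARS, WARS, GARS, MARS, EPRS) found under newer symbols.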

Additional observations from a re-analysis of the deposited data

Results flagged for a closer look

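In groups of 4 libraries, a single library stood far from the others of its group in 1 of the 82 groups examined. It was SLC3A2 in IRF8 KO replicate 4, at 23721 normalized counts against 14960.5 to 16262 in the others of that group. The limit used gives about 1 in 20 by chance for 4 values from 1 normal distribution. Most of these genes were instead divided into pairs of replicates, where a single library can seldom stand apart. The count is therefore not comparable with that rate.

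In 8 of the 41 genes, against 11.2% of all tested genes, both same-numbered comparisons of IRF8 KO with control went one way in replicates 1 and 3 and both went the opposite way in replicates 2 and 4, and the difference was not tested. The log2 difference within replicates 1 and 3 exceeded that within 2 and 4 by 1.44 in CTH (1.15 and -0.30), by 1.25 in CHAC1 (0.96 and -0.29), by 1.15 in TRIB3 (0.33 and -0.82), by 0.84 in ATF3 (0.62 and -0.22), by 0.75 in CBS (0.21 and -0.54), by 0.63 in DDIT3 (0.47 and -0.16) and by 0.49 in HSPA5 (0.36 and -0.13). In ALDH18A1 it was lower, with a difference of -0.40 (-0.07 and 0.33).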

How the results depend on the processing

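The count of 0 members called held under other pseudocounts, filters, scalings, without the trend and with edgeR. It was 1 with DESeq2 and 7 with the replicate block, which treats same-numbered libraries as pairs. With the split of replicates as a covariate it was 9, which added NUPR1 and STC2 to the 7. Of all tested genes 25.9%, 28.7% and 33.1% were called in these 3 fits. The block changed no other call among the 41 genes. Leaving out 1 library gave 0 to 1 called members, with SLC7A11 called without control replicate 4 and SLC1A4 without IRF8 KO replicate 4. At the thresholds of the study 0 members became 1 with DESeq2, 2 with the replicate block, 4 with the covariate and 0 to 1 without a library, where 12.2%, 12.7%, 13.1% and 9.76% to 11.7% of all tested genes met them. The 10 related genes called became 18 with DESeq2, 29 with the replicate block, 35 with the covariate and 6 to 12 without a library. The lowest, 6, came without control replicate 1 and without IRF8 KO replicate 1. The 34 genes separated by the split were 34 under each scaling and pseudocount. The promoter count of 6 became 11 with 1 free base. Of 778 single-gene values under alternatives, 668 kept direction and side of the threshold, 19 newly passed it and 91 reversed. Reversed values were, by edgeR and DESeq2, -0.065 and -0.050 for ATF3, -0.068 and -0.053 for DDIT3, -0.21 and -0.19 for CHAC1, -0.092 and -0.075 for SESN2 and -0.21 and -0.20 for CTH, with -0.0037 for DDIT4 by edgeR and -0.020 for HSPA5 after quantile normalization. The limma fit compares means of log2 values, and the count models compare mean counts. Mean counts of ATF3, DDIT3, CHAC1, SESN2 and CTH were lower in IRF8 KO, with 1067 in control and 1031 in IRF8 KO for ATF3. That of DDIT4 was 10274 in control and 10380 in IRF8 KO. The cause of the reversals was not tested. Leaving out a library reversed the log2 fold change of 26 genes, whose lowest and highest values were -0.36 to 0.73 for ATF5, -0.22 to 0.62 for ATF3, -0.30 to 0.61 for DDIT3, -0.96 to 0.48 for TRIB3, -0.45 to 1.14 for CHAC1, -0.54 to 0.62 for SESN2, -0.49 to 1.04 for DDIT4, -0.042 to 0.61 for PSAT1, -0.20 to 0.32 for PSPH, -0.033 to 0.27 for SHMT2, -0.39 to 0.064 for MTHFD2, -0.071 to 0.89 for ALDH1L2, -0.015 to 1.05 for ASNS, -0.038 to 0.20 for PYCR1, -0.028 to 0.28 for ALDH18A1, -0.34 to 1.23 for CTH, -0.49 to 0.20 for CBS, -0.29 to 0.11 for SLC7A5, -0.035 to 0.38 for SLC7A1, -0.32 to 0.21 for SLC38A2, -0.0057 to 0.53 for AARS, -0.36 to 0.12 for SARS, -0.17 to 0.67 for WARS, -0.21 to 0.15 for MARS, -0.011 to 0.22 for EPRS and -0.12 to 0.33 for XBP1. The direction was the same in every fit without a library in the other 15 genes, with 2.18 to 3.60 for SLC7A11, -1.38 to -0.82 for SLC1A4, 0.51 to 2.48 for NUPR1, 0.41 to 1.13 for PHGDH, 0.39 to 0.96 for VLDLR, 0.19 to 0.43 for SLC1A5, -1.11 to -0.49 for PPP1R15A, -1.10 to -0.55 for HERPUD1 and -2.13 to -0.031 for STC2. Depth limits STC2, at 1 read in its lowest library.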
